A study of Mus musculus with 2 samples.

Results

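Grm2, Grm3, Grm4, Grm5, Grm7 and Grm8, 6 genes of the metabotropic glutamate receptor family, were described across the cell classes of the mouse lateral hypothalamic area. They were taken by symbol, 6 of the 28692 genes in the deposited tables. The rule uses no measured value, but the members were chosen with earlier results of these data known. The tissue was cut from brain slices of C57BL/6 littermates at postnatal day 30, without any treatment or sort, and cells were captured on a Chromium v2 droplet system that tags each RNA molecule with a unique molecular identifier (UMI). One library is labelled male and pools 3 animals, and the other is labelled female and pools 2, so animals within a pool could not be told apart and each library is 1 sample.

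Metabotropic glutamate receptors are G protein-coupled receptors for the main excitatory transmitter of the brain. Group I receptors (here Grm5) couple to Gq and phospholipase C and usually sit at the postsynaptic membrane; group II (Grm2, Grm3) and group III (Grm4, Grm7, Grm8) couple to Gi and Go, lower cyclic AMP, and often act presynaptically to reduce transmitter release. In the lateral hypothalamus, glutamate and GABA inputs meet neurons that make the neuropeptides hypocretin (orexin, gene Hcrt) and melanin-concentrating hormone (gene Pmch), which are known for arousal and feeding, and glia there carry some of the same receptors.

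The sex labels went against the sex-linked genes. Xist, the RNA of the inactive X chromosome, had 20641 UMIs in the library labelled male and 30 UMIs in the library labelled female, while 4 Y-linked genes summed to 0 UMIs in the library labelled male and 7618 UMIs in the library labelled female. The libraries are therefore called by their labels only, no difference between them is read as one of sex, and where a cell group has a pair of values the library labelled male stands first. They held 3439 and 3793 cell barcodes with a median of 5718 and 6289 UMIs, of which 3187 and 3517 were kept; 17 kept barcodes occurred in both. Clusters of cells, built without the receptor genes, were named from marker lists and are called "-like"; 39 cells stayed unnamed. All 10 neuronal markers were higher in neuron-like cells than in the rest in both libraries, and each glial class likewise had its whole list higher, with 8 of 9 markers for mural-like cells in the library labelled male.

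The 4320 neuron-like cells were divided by the vesicular transporters for GABA (Slc32a1) and glutamate (Slc17a6). Inhibitory neurons had a UMI of Slc32a1 and none of Slc17a6 (985 and 1116 cells), and excitatory neurons the reverse (713 and 784 cells). Hcrt-high neurons (81 and 84 cells) drew 0.3% or more of a cell's UMIs from Hcrt, and Pmch-high neurons (85 and 61 cells) did so from Pmch. These peptide gates did not use the transporters, so some gated cells did not meet the excitatory rule. Of the cluster led by Hcrt 76.5% of cells met it, and of that led by Pmch 64.2%. Excitatory neurons in neither gate (603 and 687 cells) are the other excitatory neurons. A level is given in CPM, the gene's share of the UMIs of the class times 1e6, and levels of different genes are not compared. Differences between cell groups were tested with edgeR's quasi-likelihood test on UMI sums, 1 per library and group, with the library as a block and Benjamini-Hochberg adjustment over all genes tested. With 2 pools of littermates these p-values do not measure the spread between animals. They rest on counting error and on the spread left after the library block, mostly pooled over genes. The common coefficient of variation of that spread was 2.34% to 6.43% over the comparisons.

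The promoters of the group II pair and of Grm8 are shown because Grm3 was higher in astrocyte-like and mature oligodendrocyte-like cells than in neurons, while Grm2 and Grm8 were at or near 0 UMIs in both. RefSeq tables (GRCm38.p6) held promoters for Grm2, Grm3, Grm7 and Grm8; each line runs 5′ to 3′ on the gene's strand over the 250 bases before an annotated start, and capitals mark the GC box (GGGCGG, or CCGCCC on the other strand).
Grm2, chr9:106656110-106656359, minus strand: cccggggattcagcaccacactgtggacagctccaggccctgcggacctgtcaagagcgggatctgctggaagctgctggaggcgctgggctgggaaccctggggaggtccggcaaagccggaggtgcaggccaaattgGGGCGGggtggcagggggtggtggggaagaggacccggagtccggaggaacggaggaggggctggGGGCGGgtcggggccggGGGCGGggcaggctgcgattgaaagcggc
Grm3, chr5:9725353-9725602, minus strand: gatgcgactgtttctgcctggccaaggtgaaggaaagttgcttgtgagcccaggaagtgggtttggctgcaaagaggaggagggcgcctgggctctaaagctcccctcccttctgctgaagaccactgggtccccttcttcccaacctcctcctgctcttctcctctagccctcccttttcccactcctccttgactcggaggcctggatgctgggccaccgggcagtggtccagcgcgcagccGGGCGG
Grm8, chr6:28135147-28135396, minus strand: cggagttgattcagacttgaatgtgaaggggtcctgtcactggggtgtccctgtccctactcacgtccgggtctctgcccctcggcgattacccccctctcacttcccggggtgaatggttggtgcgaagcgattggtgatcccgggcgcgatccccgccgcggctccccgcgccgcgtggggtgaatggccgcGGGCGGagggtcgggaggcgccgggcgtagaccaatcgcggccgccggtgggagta
The Grm2 window held 3 GC boxes, 16 CpG dinucleotides and 71.2% G and C. That of Grm3 held 1 GC box, 8 CpG and 62.4% G and C. Grm8 has 3 RefSeq starts, and the window of the first, printed here, held 1 GC box, 29 CpG and 68.4% G and C. Its other windows held 0 GC boxes, 8 and 2 CpG, and 54.4% and 43.6% G and C. Over 32851 promoter windows of this length, 32.7% held a GC box, and the medians were 6 CpG and 52.4% G and C. A CCAAT box (CCAAT, or ATTGG on the other strand) occurred 1 time in the Grm2 window and 2 times in the first Grm8 window. It occurred in no place in the Grm3 window, and in 33.8% of all windows. The TATA letters (TATAAA, or TTTATA), found in 12.4% of all windows, occurred in no window of the 4 genes. The 6 genes are protein-coding loci of very different extent in the GENCODE annotation of GRCm38: Grm5 on chr7:87584168-88134907, Grm2 on chr9:106643095-106656082, Grm3 on chr5:9485541-9725170, Grm4 on chr17:27422387-27521403, Grm7 on chr6:110645581-111567230 and Grm8 on chr6:27275119-28135178. Antisense genes overlap exons of Grm2 and Grm7. Gm28111, over Grm2, had 0 UMIs in neurons, and Gm20387, over Grm7, had 48 and 52 UMIs against 1003 and 1198 UMIs of Grm7; the use of strand in counting is not given in the sources used here.

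Grm3 was 11.6-fold higher in astrocyte-like cells and 15.5-fold higher in mature oligodendrocyte-like cells than in neuron-like cells, while the other members that passed the test in these comparisons were lower in the glia. Grm5 reached 240 and 328 CPM in oligodendrocyte precursor-like cells, beside 251 and 279 CPM in neuron-like cells, and was 17.9-fold lower in mature oligodendrocyte-like cells than in the precursors. With total UMIs in place of TMM as the scaling, the log2 fold change of Grm5 in mature cells against precursors was -4.96, and that of Grm3 in mature cells against neurons 3.24. Hcrt-high neurons had Grm5 2.33-fold and Grm4 8.36-fold lower than other excitatory neurons. The Grm4 fold rests on 3 and 2 UMIs in Hcrt-high neurons. It did not pass after cells were thinned to equal depth. Such low levels were also seen elsewhere among neurons. The inhibitory-rich cluster led by Nts, Crh and Acvr1c had 92.7 and 91.3 CPM of Grm5 and 0 and 6.37 CPM of Grm4. The excitatory-rich cluster led by Ebf3, Nxph4 and Stk26 had 6.97 and 2.57 CPM of Grm4, but 333 and 335 CPM of Grm5. Inhibitory and excitatory neurons differed by at most 1.37-fold in the 3 members that passed with edgeR (24.8% of genes passed). DESeq2 called 0 of them. Sparser members had larger folds that did not pass, 1.53-fold higher for Grm3 and 1.47-fold lower for Grm2 in inhibitory neurons. Without the Hcrt-high and Pmch-high cells Grm2 passed as well, at a log2 fold change of -0.95.

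**Figure D1:**
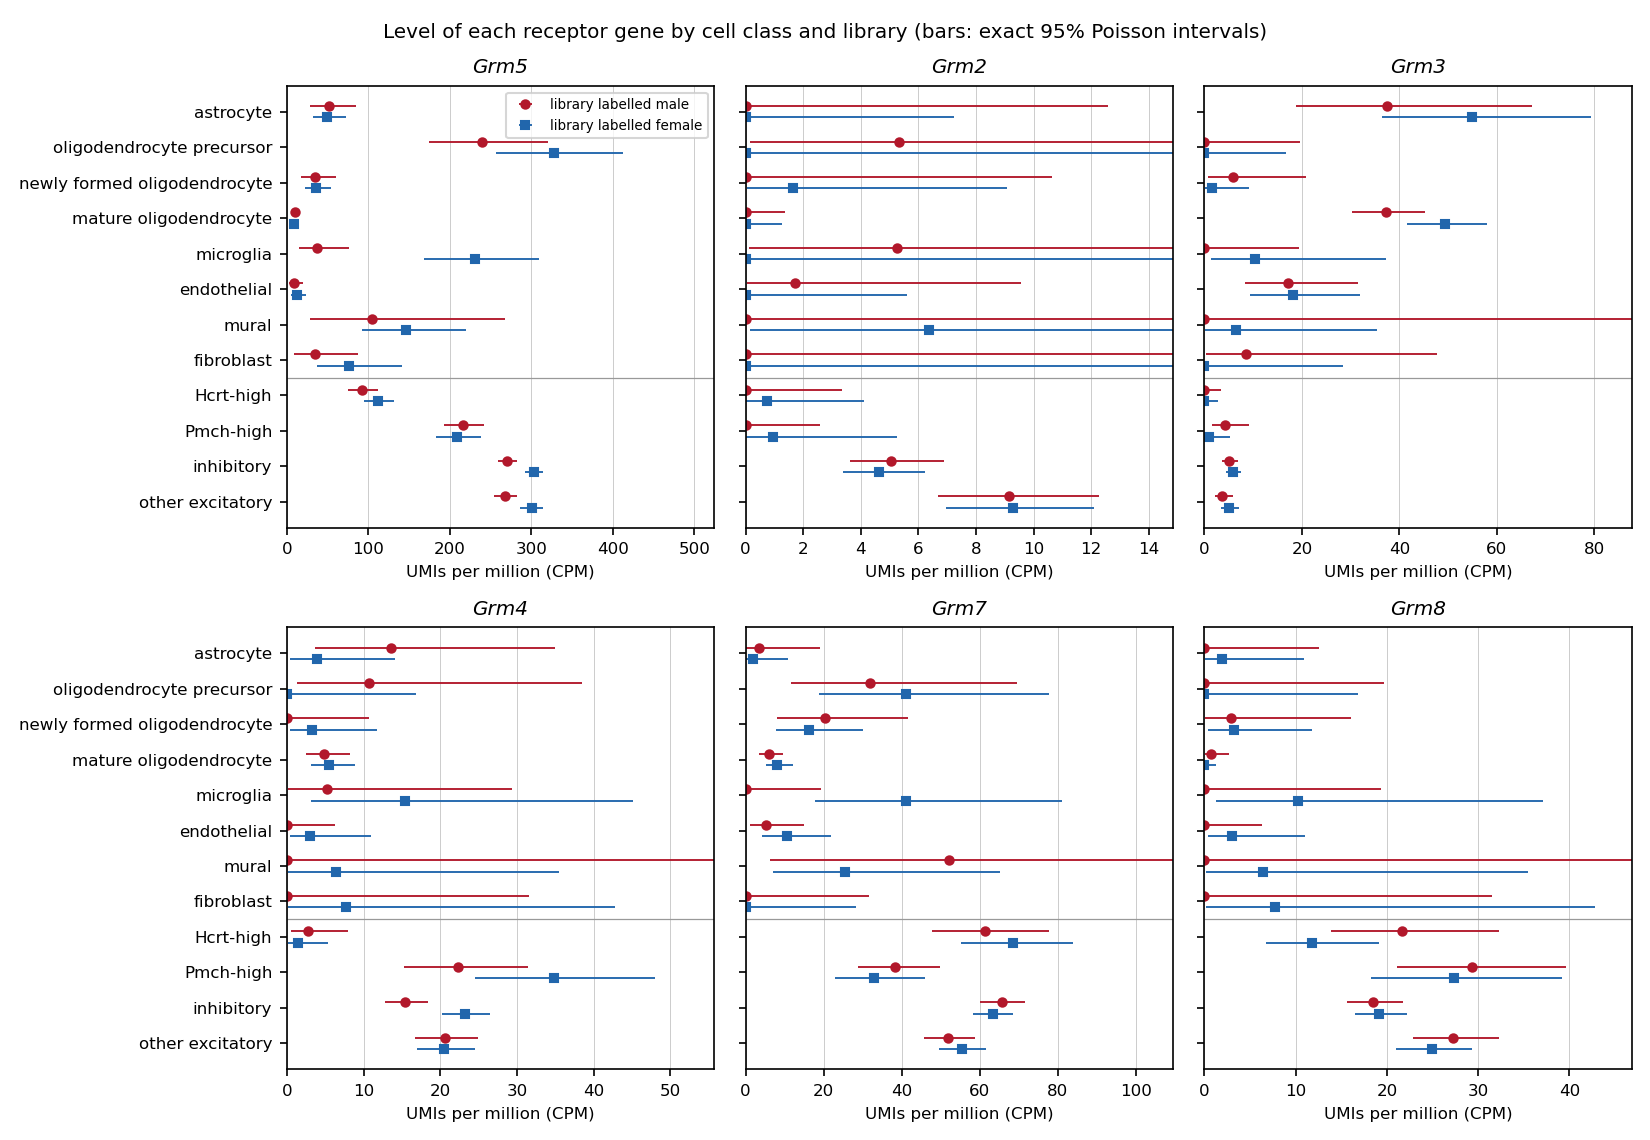
Level of the 6 receptor genes in CPM (horizontal axis, a scale of its own for each gene) in 8 non-neuronal classes and 4 neuronal groups, with 1 point per library and exact 95% Poisson intervals, some of which run past the frame. Grm3 is highest in astrocyte-like and mature oligodendrocyte-like cells (37.2 to 54.8 CPM), and Grm5 is high in neurons and in oligodendrocyte precursors.

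Grm5 encodes the group I receptor mGlu5, which releases calcium from stores. Its level in all neuron-like cells was 251 and 279 CPM, from 4347 and 5657 UMIs. Inhibitory neurons had 271 and 303 CPM, and other excitatory neurons 268 and 300 CPM. The highest level outside neurons, 240 and 328 CPM, was that of the oligodendrocyte precursors. These top 3 groups had overlapping ranges over the libraries. Pmch-high neurons followed with 216 and 209 CPM, and Hcrt-high neurons had 92.1 and 112 CPM. Microglia-like and mural-like cells stood between them in the order, but with wide ranges, 36.8 and 231 CPM for microglia-like cells and 104 and 146 CPM for mural-like cells. Lower levels were seen in fibroblast-like (34.2 and 76.8 CPM), astrocyte-like (51.2 and 48.9 CPM) and newly formed oligodendrocyte-like cells (34.7 and 35.9 CPM). Endothelial-like cells (8.59 and 12.2 CPM) and mature oligodendrocyte-like cells (9.58 and 8.83 CPM) had the lowest, and their ranges overlapped.

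Hcrt-high neurons carried 102 and 152 UMIs of Grm5 (92.1 and 112 CPM), against 1316 and 1747 UMIs (268 and 300 CPM) in other excitatory neurons. Both libraries of Hcrt-high neurons lay below both libraries of the other excitatory neurons, at a log2 fold change of -1.22 ± 0.12 (SE; edgeR quasi-likelihood, Benjamini-Hochberg adjusted p = 7.22e-12). A UMI of Grm5 was found in 59.3% and 67.9% of Hcrt-high neurons and in 75.3% and 79.2% of other excitatory neurons, although the median depth was 16101 and 18305 UMIs in Hcrt-high cells and 7834 and 8099 UMIs in the others. With each cell thinned to 2000 UMIs the shares were 19.8% and 23.8% in Hcrt-high and 37.6% and 45% in other excitatory neurons. Endothelial-like cells, among the classes lowest in Grm5, had a thinned share of 1.39% and 2.74% at a median depth of 3490.5 and 3748 UMIs. They are no upper measure of free RNA. The summed neuronal markers stood at 10.3% and 4.77% of the neuronal level in them. Over the other non-neuronal classes these ran from 3.35% and 3.07% in mature oligodendrocyte-like to 22.9% and 66.0% in mural-like cells. Set against Pmch-high neurons, Hcrt-high neurons were again lower, by a log2 fold change of -1.07 ± 0.13 (adjusted p = 4.04e-15, same test). The Pmch-high neurons themselves did not pass the test against other excitatory neurons with a log2 fold change of -0.15 ± 0.09 (edgeR, adjusted p = 0.233), and did so with total UMIs as the scaling, at -0.41. Inhibitory neurons had slightly more Grm5 than excitatory neurons, 271 and 303 CPM against 238 and 265 CPM. That difference passed the test (log2 fold change 0.15 ± 0.04, edgeR adjusted p = 0.00192) but was 0.01 once the Hcrt-high and Pmch-high cells were left out, and DESeq2 did not call it.

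In the glia, Grm5 differed most along the oligodendrocyte lineage. Oligodendrocyte precursor-like cells had 45 and 72 UMIs, newly formed oligodendrocyte-like cells 12 and 22 UMIs, and mature oligodendrocyte-like cells 26 and 26 UMIs, from 78 and 88, 74 and 104, and 608 and 593 cells. As levels these were 240 and 328, 34.7 and 35.9, and 9.58 and 8.83 CPM, so no library of one stage overlapped another stage. Mature cells were lower than precursors by a log2 fold change of -4.16 ± 0.25 (edgeR, adjusted p = 3.68e-47), a direction and call that held under each alternative tried, with -4.96 for total UMIs as the scaling. Between precursors and neurons the log2 fold change was -0.07 ± 0.16 (edgeR, adjusted p = 0.765), lower in the precursors in the library labelled male (-0.26) and higher in the library labelled female (0.09), and 0.11 with total UMIs as the scaling. Genes used as neuronal markers were also counted in the precursors. All 10 neuronal markers had UMIs there, and their summed level was 17.0% and 20.01% of that in neurons; the single markers lay between 8.79% and 56.8% in the library labelled male and between 14.3% and 65.5% in the library labelled female. Grm5 stood at 95.5% and 118% of its neuronal level, above every one of the 10 markers in both libraries. Its UMIs were spread over 31 of 78 and 49 of 88 precursor cells. The source of the marker UMIs, and any part of neuronal RNA in the Grm5 value, was not tested.

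Microglia-like cells of the library labelled female had Grm5 at 83.1% of the neuronal level, beside a summed neuronal marker level of 45.2%, and those of the library labelled male at 14.7% beside 15.8%. In mural-like and fibroblast-like cells of the library labelled male 1 cell held all 4 UMIs of each class. The part of neuronal RNA in these values was not tested. Astrocyte-like cells had 15 and 25 UMIs of Grm5 (51.2 and 48.9 CPM), lower than in neuron-like cells by a log2 fold change of -2.26 ± 0.21 (edgeR, adjusted p = 4.09e-26). Their Grm5 was at 20.4% and 17.6% of the neuronal level, within the range of the 10 neuronal markers in the same cells (7.53% to 25.9% and 3.55% to 29.5%). Mature oligodendrocyte-like cells were lower than neuron-like cells by a log2 fold change of -4.13 ± 0.14 (edgeR, adjusted p = 1.16e-178), or -4.85 with total UMIs as the scaling.

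**Figure D2:**
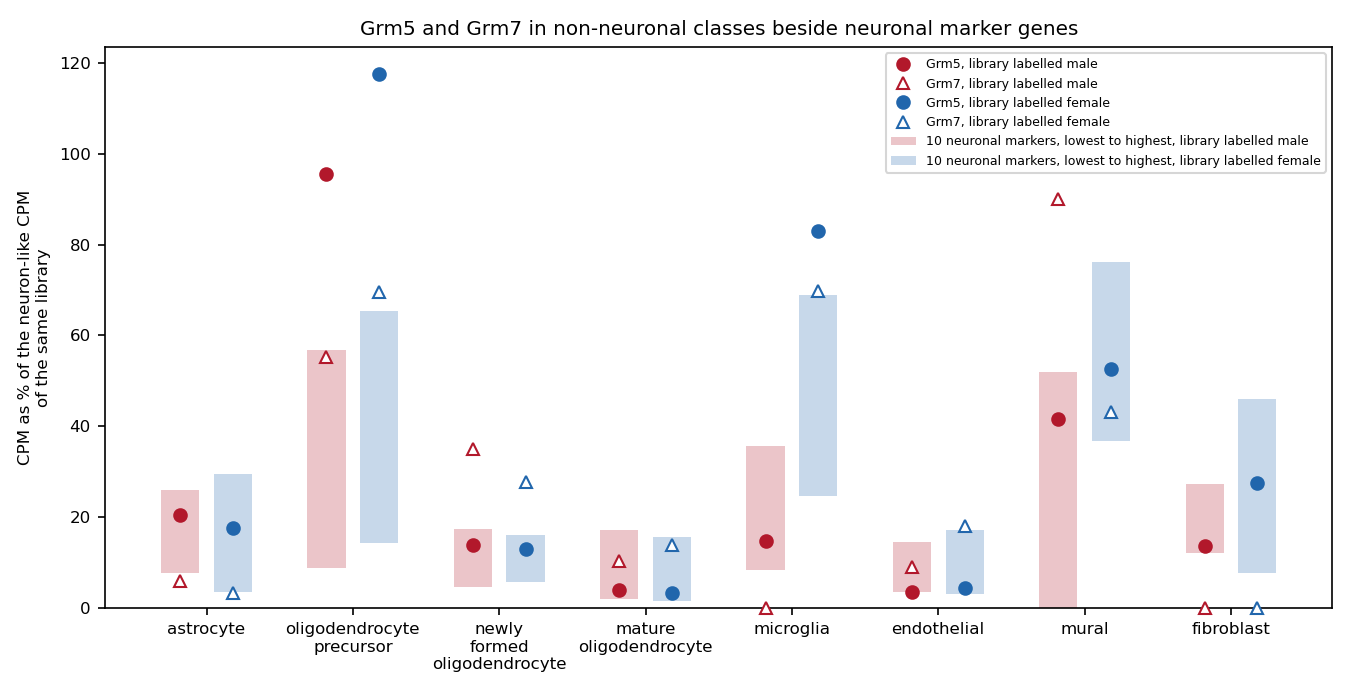
Level of Grm5 (circles) and Grm7 (triangles) in 8 non-neuronal classes as a percentage of the level in neuron-like cells of the same library, with the range of 10 neuronal marker genes as a pale bar. Grm5 lies above the bar in oligodendrocyte precursor-like cells of both libraries (95.5% and 118%) and inside it in astrocyte-like cells.

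Grm3, of group II, encodes mGlu3, known in rodent brain as a receptor of astrocytes as well as neurons and as a target of the dipeptide NAAG. Astrocyte-like cells had 11 and 28 UMIs (37.5 and 54.8 CPM), and mature oligodendrocyte-like cells 101 and 145 UMIs (37.2 and 49.3 CPM). Neuron-like cells had 75 and 98 UMIs, a level of 4.33 and 4.82 CPM. Every library of both glial classes thus lay above both libraries of the neurons. The log2 fold change was 3.53 ± 0.39 for astrocyte-like cells (edgeR, adjusted p = 4.15e-18) and 3.96 ± 0.18 for mature oligodendrocyte-like cells (edgeR, adjusted p = 1.61e-109), the second being 3.24 with total UMIs as the scaling. The 2 glial classes overlapped in level. Endothelial-like cells came next with 10 and 12 UMIs (17.2 and 18.2 CPM), between these glia and the neurons in both libraries.

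Within the oligodendrocyte lineage Grm3 was seen mainly in the mature cells, where Grm5 was lowest. Precursor-like cells had 0 UMIs in both libraries, where 3 UMIs over the group would be 7.37 CPM. Newly formed oligodendrocyte-like cells had 2 and 1 UMIs (5.78 and 1.63 CPM), and mature cells 37.2 and 49.3 CPM. A difference between precursor-like and newly formed cells was not detectable at this depth. Against the precursors, mature cells were at least 5.90-fold higher (bound from 3 UMIs over the group; edgeR adjusted p = 1.79e-11), although DESeq2 did not call it. The mature class joins 3 clusters. The cluster led by Prkcdbp, Pex5l and Glul had 46.3 and 62.1 CPM, and that led by Nkx2-9, Klk6 and Cdkn1c had 35.9 and 46.5 CPM. The cluster led by Cxcl12, Fam214a and Gpr17, the last a marker of newly formed oligodendrocytes, had 17.7 and 15.9 CPM, below the other clusters in both libraries. A UMI of Grm3 was found in 14.3% and 20.9% of mature oligodendrocyte-like cells and in 8.4% and 14.2% of astrocyte-like cells at median depths of 4164.5 and 4643 UMIs and of 2262 and 2540 UMIs. Thinned to 2000 UMIs per cell these shares were 7.73% and 8.6% in mature oligodendrocyte-like and 6.72% and 8.2% in astrocyte-like cells, and in microglia-like cells, at a median of 2550 and 3016.5 UMIs, they were 0% and 2.5% (0 of 71 cells allows up to 5.06%, exact binomial).

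Among neurons Grm3 was low. Inhibitory neurons had 40 and 55 UMIs (5.06 and 5.79 CPM) and excitatory neurons 21 and 29 UMIs (3.06 and 3.81 CPM). The inhibitory libraries lay above the excitatory ones, but the difference missed the threshold (log2 fold change 0.61 ± 0.27, edgeR adjusted p = 0.0805). Hcrt-high neurons had 0 UMIs in both libraries, against 18 and 29 UMIs (3.67 and 4.98 CPM) in other excitatory neurons. They were at least 3.60-fold lower (bound from 3 UMIs over the group; edgeR adjusted p = 0.00269), a call that DESeq2 did not make. Pmch-high neurons had 6 UMIs in the library labelled male and 1 UMI in the library labelled female, with no call against other excitatory neurons (edgeR adjusted p = 0.703). Over the neuron-like clusters, the highest level was in the cluster led by Tac2, Lamp5 and Otof (9.85 and 12.3 CPM, from 6 and 8 UMIs).

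Grm2, the other group II gene, encodes mGlu2, a presynaptic autoreceptor in many brain areas. Neuron-like cells had 98 and 114 UMIs (5.66 and 5.61 CPM). Other excitatory neurons were the highest class, with 45 and 54 UMIs (9.16 and 9.28 CPM), followed by inhibitory neurons with 40 and 44 UMIs (5.06 and 4.64 CPM). No library of one group overlapped the other. Hcrt-high neurons had 0 and 1 UMIs and Pmch-high neurons 0 and 1 UMIs, in 165 and 146 cells. For Hcrt-high neurons the ratio to the other excitatory neurons was 0.0440 (exact 95% counting interval 0.0011 to 0.251; edgeR adjusted p = 9.26e-05), and for Pmch-high neurons 0.0434 (0.00109 to 0.248; edgeR adjusted p = 0.00108). DESeq2 called neither. Against excitatory neurons, with the peptide cells that met that rule included, inhibitory neurons were lower by a log2 fold change of -0.56 ± 0.23. That value did not pass the test (edgeR adjusted p = 0.0651). Without the Hcrt-high and Pmch-high cells that value was -0.95 and passed. Astrocyte-like and mature oligodendrocyte-like cells had 0 UMIs in both libraries, and were at least 1.51-fold and at least 10.6-fold lower than neuron-like cells (bounds from 3 UMIs over each group; edgeR adjusted p = 0.0300 and 4.73e-08). The astrocyte-like call was not made by DESeq2 or with the stricter cell filter. Only 1 UMI was seen in the precursors, too few for a difference to be detectable. The highest neuron-like cluster for Grm2 was that led by Ebf3, Nxph4 and Stk26, with 17.4 and 18.0 CPM from 10 and 14 UMIs.

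Grm4, a group III gene for mGlu4, is known as a presynaptic receptor. Its level was 16.7 and 20.4 CPM in neuron-like cells (289 and 414 UMIs). In Hcrt-high neurons only 3 and 2 UMIs were found (2.71 and 1.47 CPM), against 101 and 119 UMIs (20.6 and 20.5 CPM) in other excitatory neurons. Both libraries of Hcrt-high neurons lay far below those of the other excitatory neurons, at a log2 fold change of -3.06 ± 0.45 (edgeR, adjusted p = 3.14e-07) that was -2.46 in the library labelled male alone and -3.23 in the library labelled female alone. It was -5.02 with the Hcrt gate at 1% of UMIs, and after thinning to 2000 UMIs per cell it was -1.53 and no longer passed. Pmch-high neurons had the highest Grm4 of all classes, 32 and 37 UMIs (22.3 and 34.8 CPM). Against other excitatory neurons this was a log2 fold change of 0.71 ± 0.22 (edgeR, adjusted p = 0.0206), which did not pass with total UMIs as the scaling (0.45), after thinning (0.80) or with DESeq2 (0.70). Hcrt-high against Pmch-high neurons gave -3.78 ± 0.48 (edgeR, adjusted p = 1.20e-13), and -2.86 and -4.27 in the single libraries. Inhibitory neurons (15.4 and 23.2 CPM) overlapped excitatory neurons (18.6 and 19.1 CPM), with a log2 fold change of 0.00 ± 0.13 (edgeR, adjusted p = 0.993) whose sign turned with the settings.

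In glia Grm4 was sparse. Mature oligodendrocyte-like cells had 13 and 16 UMIs (4.79 and 5.44 CPM), lower than neuron-like cells by a log2 fold change of -1.14 ± 0.27 (edgeR, adjusted p = 3.44e-05), which neither DESeq2 (-1.17) nor the stricter cell filter (-0.37) called. With total UMIs as the scaling it was -1.86. Of these UMIs 6 and 6 came from the small cluster led by Nkx2-9, Klk6 and Cdkn1c, whose level of 18.0 and 16.4 CPM was near that of neurons. The larger cluster led by Prkcdbp, Pex5l and Glul had 2.43 and 2.65 CPM. Astrocyte-like cells had 4 and 2 UMIs with no call (edgeR adjusted p = 0.0788) except with total UMIs as the scaling. Precursor-like cells had 2 and 0 UMIs, a ratio to neurons of 0.263 (exact 95% counting interval 0.0318 to 0.953; edgeR adjusted p = 0.0449) that 6 alternatives did not call.

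Grm7 encodes mGlu7, a receptor of presynaptic active zones. It had 57.9 and 59.0 CPM in neuron-like cells (1003 and 1198 UMIs). Hcrt-high neurons had 68 and 93 UMIs (61.4 and 68.5 CPM), against 255 and 322 UMIs (51.9 and 55.3 CPM) in other excitatory neurons. Their libraries lay above those of the other excitatory neurons, at a log2 fold change of 0.53 ± 0.14 (edgeR, adjusted p = 0.00241), but the value was 0.28 and did not pass with total UMIs as the scaling, and DESeq2 did not call it. Pmch-high neurons had 55 and 35 UMIs (38.4 and 33.0 CPM), below the other excitatory neurons in both libraries. That difference did not pass (log2 fold change -0.31 ± 0.17, edgeR adjusted p = 0.170), and did with total UMIs as the scaling (-0.57). Hcrt-high against Pmch-high neurons differed by 0.84 ± 0.19 on the log2 scale (edgeR, adjusted p = 9.37e-05), a call that DESeq2 did not make. Inhibitory neurons had 65.6 and 63.3 CPM and excitatory neurons 51.3 and 55.8 CPM. The inhibitory libraries were the higher ones, with a log2 fold change of 0.22 ± 0.07 (edgeR, adjusted p = 0.0133), lost under 5 alternatives.

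Along the oligodendrocyte lineage Grm7 had 6 and 9 UMIs (32.0 and 41.0 CPM) in precursor-like, 7 and 10 UMIs (20.2 and 16.3 CPM) in newly formed and 16 and 24 UMIs (5.90 and 8.15 CPM) in mature oligodendrocyte-like cells. The stages did not overlap over the libraries. Mature cells were lower than precursors by a log2 fold change of -1.58 ± 0.50 (edgeR, adjusted p = 0.00576) and lower than neurons by -2.33 ± 0.20 (edgeR, adjusted p = 6.00e-32; -3.05 with total UMIs as the scaling). The difference from the precursors was -2.38 with total UMIs as the scaling, and was not called after thinning (-1.31) or by DESeq2 (-1.53). Precursors did not pass the test against neurons (log2 fold change -0.85 ± 0.36, edgeR adjusted p = 0.0558). Their Grm7 stood at 55.2% and 69.5% of the neuronal level, under the highest of the 10 neuronal markers in the library labelled male (56.8%) and above it in the library labelled female (65.5%). In newly formed oligodendrocyte-like cells Grm7 was at 34.9% and 27.7% of the neuronal level, above all 10 markers (at most 17.3% and 16.02%). Astrocyte-like cells had 1 and 1 UMIs, a ratio to neurons of 0.0425 (exact 95% counting interval 0.00515 to 0.154; edgeR adjusted p = 8.51e-14).

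Grm8 encodes mGlu8, the third group III member here. Its level was 22.5 and 20.6 CPM in neuron-like cells (389 and 418 UMIs). Inhibitory neurons had 146 and 182 UMIs (18.5 and 19.2 CPM), against 187 and 176 UMIs (27.2 and 23.1 CPM) in excitatory neurons. The inhibitory libraries were the lower ones, with a log2 fold change of -0.45 ± 0.12 (edgeR, adjusted p = 0.00112) that was lost with the stricter cell filter (-0.15), without the library block (-0.46), after thinning (-0.33) and with DESeq2 (-0.46). Hcrt-high neurons had 24 and 16 UMIs (21.7 and 11.8 CPM), and Pmch-high neurons 42 and 29 UMIs (29.3 and 27.3 CPM). Neither peptide group passed against other excitatory neurons, which had 27.3 and 24.9 CPM (edgeR, adjusted p = 0.170 for Hcrt-high and 0.158 for Pmch-high neurons). Grm8 passed in Hcrt-high neurons with total UMIs as the scaling (-0.68), turned to 0.23 there with the stricter cell filter, and passed in Pmch-high neurons with that filter (1.04), where thinning turned it to -0.84. Hcrt-high against Pmch-high neurons gave a log2 fold change of -0.78 ± 0.29 (edgeR, adjusted p = 0.0271), lost with DESeq2 (-0.82), without the library block (-0.81) and with the stricter cell filter (-0.79). Glia had almost no Grm8. Precursor-like cells had 0 UMIs in both libraries, at least 2.91-fold lower than neurons (bound from 3 UMIs over the group; edgeR adjusted p = 0.000284). Mature oligodendrocyte-like cells had 2 and 0 UMIs in 1201 cells, a ratio to neurons of 0.0165 (exact 95% counting interval 0.00199 to 0.0597; edgeR adjusted p = 3.40e-24). Astrocyte-like cells had 0 and 1 UMIs, a ratio of 0.0580 (0.00147 to 0.324; edgeR adjusted p = 4.40e-05), not called with the stricter cell filter.

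The number of members called is set here beside the share of all genes called by the same rule. In inhibitory against excitatory neurons 3 of 6 members were called, 2 higher and 1 lower, with 24.8% of genes called (11.4% higher and 13.4% lower). In Hcrt-high against other excitatory neurons 5 of 6 were called, 1 higher and 4 lower, with 40.4% of genes called (21.1% higher and 19.3% lower). In Pmch-high against other excitatory neurons 2 of 6 were called, 1 higher and 1 lower, with 34.8% of genes called (18.6% higher and 16.2% lower). Hcrt-high against Pmch-high neurons had 4 members tested and 4 called, 1 higher and 3 lower, with 33.9% of genes called (16.2% higher and 17.7% lower). Astrocyte-like against neuron-like cells had 5 of 6 called, 1 higher and 4 lower, with 46.1% of genes called (20.9% higher and 25.2% lower). Precursor-like against neuron-like cells had 2 of 6 called, both lower, with 34% of genes called (14% higher and 20% lower). Mature oligodendrocyte-like against neuron-like cells had 6 of 6 called, 1 higher and 5 lower, with 73.6% of genes called (34.2% higher and 39.4% lower). Mature against precursor-like cells had 3 tested and 3 called, 1 higher and 2 lower, with 41.5% of genes called (22.1% higher and 19.4% lower). The low-count filter left out Grm2, Grm4 and Grm8 there, and Grm2 and Grm3 in Hcrt-high against Pmch-high neurons. That every tested member was called in these comparisons thus depends partly on the filter. Grm3 passed the filter through the mature cells alone, as the precursors had 0 UMIs. The Pmch-high and precursor-like shares of members lie near the share of all genes. DESeq2 called fewer members in each comparison: 0 in inhibitory neurons (3.88% of genes), 2 in Hcrt-high (12.5%) and 0 in Pmch-high neurons (11.5%), and 2 in Hcrt-high against Pmch-high neurons (7.33%). It called 4 in astrocyte-like (27.9%), 1 in precursor-like (18.7%) and 5 in mature oligodendrocyte-like against neuron-like cells (48.4%), and 1 in mature against precursor-like cells (14.5%). Where DESeq2 called 0 members, edgeR's unadjusted p was under 0.05 for 4461 genes in inhibitory and 5146 genes in Pmch-high neurons. Fitted log2 fold changes are relative to a TMM scaling, which moved them against total UMIs by 0.26 for Hcrt-high and 0.27 for Pmch-high against other excitatory neurons, 0.16 for astrocyte-like, -0.18 for precursor-like and 0.72 for mature oligodendrocyte-like against neuron-like cells, and 0.80 for mature against precursor-like cells; Grm5 in the precursors was the member whose sign turned.

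**Figure D3:**
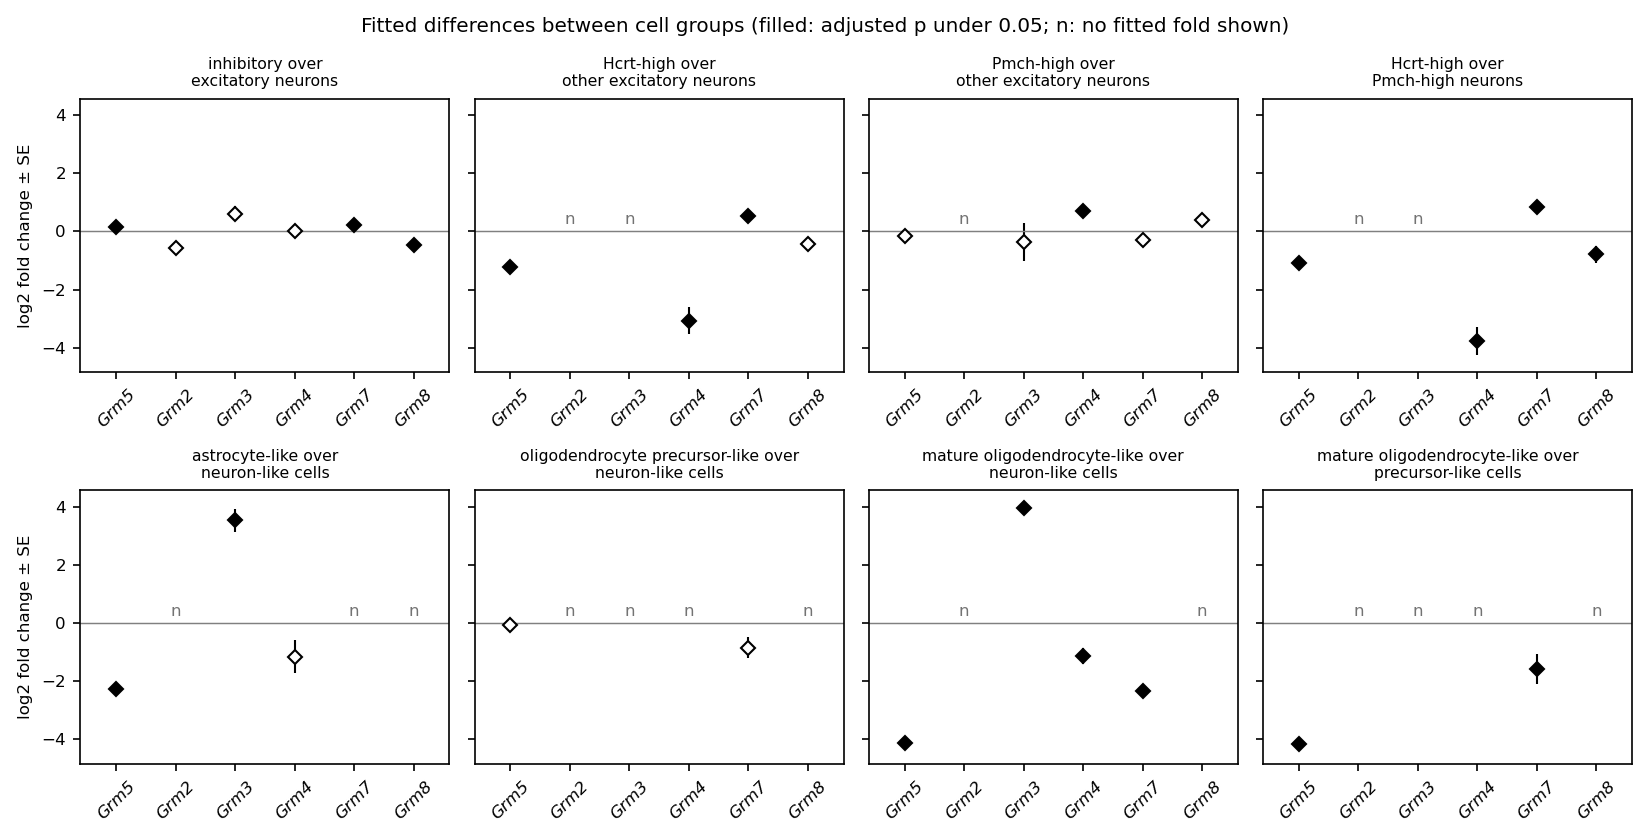
Fitted log2 fold change (vertical axis, ± SE) of each member in the 8 comparisons, first-named group over second, from edgeR's quasi-likelihood fit on 4 sums. Filled points passed an adjusted p of 0.05 and "n" marks a member with too few UMIs in one group for a fitted fold. Grm3 is the point above 3 in the astrocyte-like and mature oligodendrocyte-like over neuron-like panels, and Grm4 the lowest point in both Hcrt-high panels.

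Levels were also described over the neuron-like clusters. Their range cannot be set against that of the transporter groups, which are averages over many of the same clusters. The 14 compared had at least 10 cells in each library and are described by their leading genes, without a test. Grm5 ranged from a mean of 92.0 CPM in the inhibitory-rich cluster led by Nts, Crh and Acvr1c (92.7 and 91.3 CPM) to 379 CPM in that led by Fezf1, Adcyap1 and Gda (336 and 422 CPM), with a median over clusters of 278 CPM. The cluster led by Hcrt was the second lowest at 98.6 and 119 CPM. Grm4 was highest in the cluster led by Hbb-bs, Trh and Sall3, at 46.6 and 65.4 CPM from 32 and 41 UMIs, against a cluster median of 18.4 CPM. That same cluster had the lowest Grm7, at 30.6 and 31.9 CPM. Hbb-bs is a haemoglobin gene from the list of erythrocyte markers and does not describe these neurons. Set against all other cells, this cluster was led by Trh, Prdm8 and Sall3. Grm7 was highest in the cluster led by Pthlh, Six6 and Bcl11b (88.0 and 89.4 CPM). Grm8 stood out in the cluster led by Prokr2, Synpr and Lef1, with 51.3 and 63.7 CPM from 39 and 55 UMIs, against a cluster median of 19.2 CPM. The Prokr2 cluster was also the second highest for Grm2, at 7.90 and 17.4 CPM. Its next neighbour for Grm8, the Fezf1 cluster, had 38.6 and 29.7 CPM and did not reach it in either library. Both the lowest Grm4 values were those of the Hcrt cluster (1.64 and 1.37 CPM) and the Nts cluster (0 and 6.37 CPM).

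**Figure D4:**
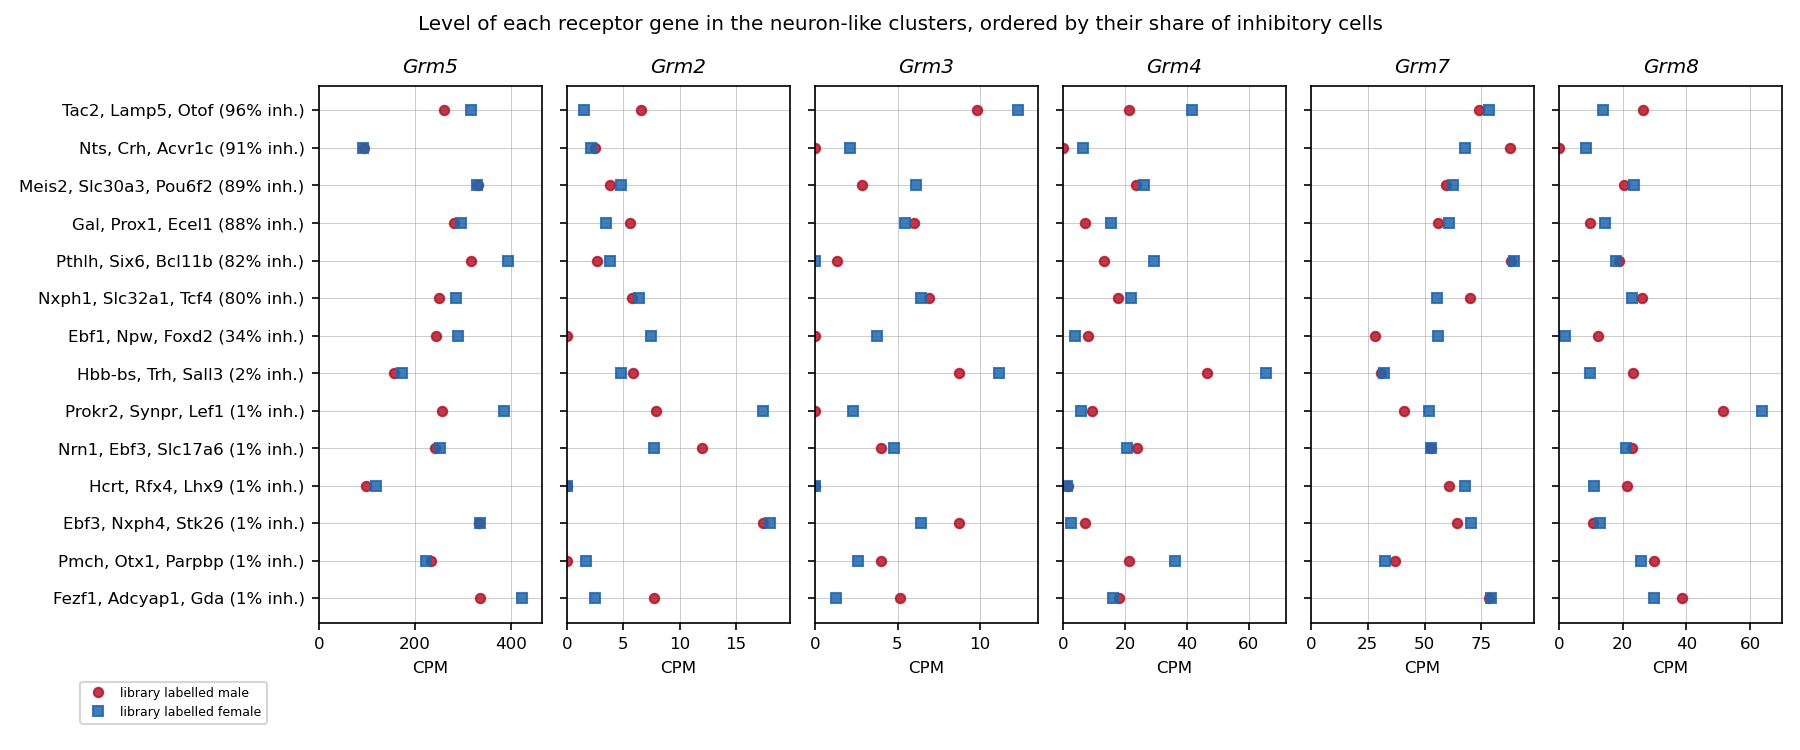
Level in CPM of each member in the 14 neuron-like clusters, named by 3 leading genes and ordered from top to bottom by the share of inhibitory neurons, with 1 point per library. The Nts and Hcrt clusters are low for Grm5 (91.3 to 119 CPM). The cluster led by Hbb-bs (a haemoglobin gene), Trh and Sall3 is high for Grm4, and the Prokr2 cluster is high for Grm8.

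Likeness of pattern was measured as Pearson's r of log2(CPM + 1) over 24 sums, 12 classes in 2 libraries, among 9931 genes with at least 200 UMIs per library; the sums share libraries and depth, and r is a description. Grm5 was most like Unc80 (0.95), Asic1 (0.95) and Sh3bp1 (0.94). Unc80 is a subunit of the NALCN sodium leak channel and Asic1 an acid-sensing ion channel. Grm3 was most like Ankrd40 (0.79), Car14 (0.72) and Car2 (0.70), the last 2 being carbonic anhydrases. For Grm4 the genes were Islr2 (0.87), Gm27199 (0.86) and Phf24 (0.85), and for Grm7 Mfsd6 (0.88), 1700025G04Rik (0.87) and Zfp821 (0.87). Grm8 was most like Synj1 (0.95), a phosphatase of synaptic vesicle recycling, then Ywhab (0.92) and Usp9x (0.90). Grm2 was under the UMI minimum itself, and its nearest genes, Gltscr1l (0.78), Trh (0.75) and 4930447C04Rik (0.73), rest on few UMIs. Between members r was highest for Grm5 with Grm7 and Grm4 with Grm8 (0.62 each) and lowest for Grm3 with Grm5 (-0.51).

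The pathway around the receptors was followed in 56 genes, among them scaffolds, the Gq and Gi routes, group II and III partners, kinases and regulators, NAAG enzymes and glutamate uptake. Grm6, known from retina, had 0 and 1 UMIs in neuron-like cells. In Hcrt-high against other excitatory neurons 11 of 49 tested genes were higher and 18 lower (DESeq2 6 and 8; 21.1% and 19.3% of all genes with edgeR), with a median log2 fold change of -0.01 beside -0.01 over all genes. All 3 Gi subunit genes that passed were higher: Gnai2 had 339 and 362 CPM in Hcrt-high and 207 and 196 CPM in other excitatory neurons (log2 fold change 1.05 ± 0.10, edgeR adjusted p = 7.36e-12), and Gnaz and Gnai1 had log2 fold changes of 0.996 and 0.82. Of the Gq route 6 genes were lower and 2 higher. Plcb1, a phospholipase C on that route, had 5.42 and 4.42 CPM in Hcrt-high and 43.8 and 50.7 CPM in other excitatory neurons (-3.03 ± 0.29, edgeR adjusted p = 1.23e-11). Elfn1, a postsynaptic protein that binds group III receptors across the synapse, had 1.81 and 1.47 CPM in Hcrt-high and 37.1 and 37.0 CPM in other excitatory neurons (-4.23 ± 0.40, edgeR adjusted p = 7.22e-12). Rgs2, which speeds the shut-off of Gq, was higher, with 284 and 267 CPM in Hcrt-high and 66.8 and 72.9 CPM in other excitatory neurons (2.23 ± 0.11, edgeR adjusted p = 1.16e-21). DESeq2 called these 4 genes too.

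In Pmch-high against other excitatory neurons 9 of 48 tested genes were higher and 11 lower with edgeR, where 18.6% and 16.2% of all genes were. DESeq2 called 0 higher and 7 lower. Shank1, a scaffold that links group I receptors to the postsynaptic density through Homer proteins, had 54.4 and 73.5 CPM in Pmch-high and 170 and 201 CPM in other excitatory neurons (log2 fold change -1.29 ± 0.12, edgeR adjusted p = 2.83e-07). Rgs4, another regulator of G protein signalling, had 25.8 and 21.7 CPM in Pmch-high and 130 and 125 CPM in other excitatory neurons (-2.15 ± 0.15, edgeR adjusted p = 1.94e-08). Elfn1 was lower here as well (-1.50 ± 0.25, edgeR adjusted p = 0.000177). Hcrt-high against Pmch-high neurons had 12 of 47 genes higher and 8 lower (DESeq2 6 and 2; 16.2% and 17.7% of all genes with edgeR), Rgs4 among the higher ones (log2 fold change 1.94 ± 0.20, edgeR adjusted p = 3.23e-21). In inhibitory against excitatory neurons 10 of 51 genes were higher and 10 lower with edgeR, where 11.4% and 13.4% of all genes were. DESeq2 called 1 higher and 2 lower. Plcb1 was higher, at 88.3 and 101 CPM in inhibitory and 38.0 and 43.4 CPM in excitatory neurons (1.18 ± 0.07, edgeR adjusted p = 1.65e-58), and Elfn1 lower, at 13.9 and 16.6 CPM in inhibitory and 28.3 and 29.5 CPM in excitatory neurons (-0.95 ± 0.12, edgeR adjusted p = 9.37e-14).

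For the glia the pathway genes, unlike the receptors, could enter the clustering, so their values are a description. Astrocyte-like against neuron-like cells had 15 of 54 genes higher and 24 lower (DESeq2 13 and 17; 20.9% and 25.2% of all genes with edgeR). Folh1, whose product cleaves NAAG, the peptide ligand of mGlu3, had 99.0 and 86.1 CPM in astrocyte-like cells, 26.5 and 37.0 CPM in mature oligodendrocyte-like cells and 0.404 and 0.295 CPM in neuron-like cells, so it was high in the classes where Grm3 was high. Gpr179 had 41.0 and 70.5 CPM in astrocyte-like and 2.37 and 2.36 CPM in neuron-like cells. Mature oligodendrocyte-like against neuron-like cells had 14 of 54 genes higher and 34 lower (DESeq2 11 and 32; 34.2% and 39.4% of all genes with edgeR), with a median log2 fold change of -1.36 beside -0.11 over all genes. Of 8 tested scaffolds of group I receptors, 1 was higher and 6 were lower (DESeq2 1 and 5). The higher one was Homer3, at 21.4 and 19.0 CPM in mature oligodendrocyte-like and 0.462 and 0.788 CPM in neuron-like cells. In precursor-like against neuron-like cells 12 of 54 genes were higher and 16 lower (DESeq2 10 and 10; 14% and 20% of all genes with edgeR). A pair of postsynaptic genes was among the higher ones: Dlgap1 had 336 and 405 CPM in precursor-like and 94.7 and 112 CPM in neuron-like cells, and Elfn1 had 69.3 and 82.0 CPM in precursor-like and 19.8 and 22.1 CPM in neuron-like cells. Mature against precursor-like cells had 9 of 47 genes higher and 22 lower (DESeq2 5 and 8; 22.1% and 19.4% of all genes with edgeR), and Dlgap1 stood at 13.3 and 17.3 CPM in the mature and 336 and 405 CPM in the precursor-like cells.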

How the data were processed

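The authors deposited a matrix of whole UMI counts per gene and cell barcode for each library, without normalization; reads were processed with Cell Ranger 2.2.0 against mm10 (GRCm38), per the submitters' processing notes. The annotation release is not given in the sources used here. Barcodes with at least 500 genes and at most 20% mitochondrial UMIs were kept (163 removed per library), and the highest Scrublet scores were removed at 0.8% per 1000 barcodes (95 and 115 cells; scanpy 1.11.5). Cells were scaled to 10000 UMIs, and 2000 variable genes, without the 6 members, gave 30 principal components and, with 15 neighbours, Leiden clusters at resolution 1 (igraph 0.11.9). Clusters were named from marker lists.

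Raw counts were summed per library and cell group and tested with edgeR 4.0.16 (filterByExpr, TMM, quasi-likelihood F test, library as block, Benjamini-Hochberg over all genes tested, called under 0.05) in R 4.3.3; DESeq2 1.42.0 was an alternative. The block rests on the droplet run and animals that both cell groups of a library share. The 4 sums of a comparison leave 1 residual degree of freedom, so p-values lean on spread pooled over genes. The procedure was checked on simulated counts with known changes. These changes were placed only in genes above a minimum of summed UMIs and at a fixed spread, so the sparsest members are not covered. Intervals on CPM are exact Poisson, those on shares exact Clopper-Pearson, at 95%; they cover counting error only. A fold against 0 UMIs is a bound from 3 UMIs over the group, and with 1 to 3 UMIs a ratio of pooled CPM with its counting interval is given.

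The members and lists were chosen with earlier results of these data known. Named genes were all members, up to 3 called genes of a pathway list per comparison with the largest absolute log2 fold change and at least 50 UMIs, of which examples are printed, the 3 genes most alike in pattern, and the neuron-like clusters at either end. Leading genes of a cluster had at least 50 CPM and, added after values were seen, a UMI in 25% of its cells. GENCODE M21 held 28416 of the 28692 gene identifiers (99.0%). One item of the lists is not reported here.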

Additional observations from a re-analysis of the deposited data

Results flagged for a closer look

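In 4 member and comparison pairs the libraries moved in opposite directions; the difference between the libraries was not tested, and none of these pairs passed edgeR's test over both. Grm4 in inhibitory against excitatory neurons had a log2 fold change of -0.31 in the library labelled male and 0.24 in the library labelled female, from 122 to 220 UMIs per sum. Grm3 in Pmch-high against other excitatory neurons had 0.54 in the library labelled male and -1.59 in the library labelled female, where the Pmch-high cells held 6 UMIs and 1 UMI. Grm5 in oligodendrocyte precursor-like against neuron-like cells had -0.26 in the library labelled male and 0.092 in the library labelled female. Grm2 in the same comparison had 0.28 in the library labelled male and -1.46 in the library labelled female, on 1 UMI and 0 UMIs in the precursors.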

How the results depend on the processing

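Of 394 member log2 fold changes recomputed with a test under the alternatives, 336 kept direction and side of the threshold. Another 41 lost the call, 10 gained it and 7 turned sign. Of 86 values from 1 library alone, 64 lay within 1 SD of the fitted value, 22 lay further, and no called value turned. That SD comes from the same pair of library values, so most values lie within it by construction and the 64 is no measure of stability. Grm4 in inhibitory against excitatory neurons turned to -0.030 (DESeq2), -0.0015 (RLE size factors), -0.11 (stricter cell filter) and -0.070 (peptide-gated cells left out); Grm8 turned to 0.23 in Hcrt-high (stricter filter) and -0.84 in Pmch-high neurons (thinned), and Grm5 in precursors to 0.11 (total UMIs without TMM, chosen after seeing the data). The count of members called in inhibitory against excitatory neurons was 3, and 0 with DESeq2, 0 without the replicate block, 1 with the stricter filter and 0 thinned, and the genes called were 3283, and 541 (DESeq2), 914 (no replicate block), 780 (thinned) and 1660 (peptide-gated cells left out). With DESeq2 members were 2 in Hcrt-high, 0 in Pmch-high, 2 in Hcrt-high against Pmch-high, 1 in precursor-like and 1 in mature against precursor-like cells. Genes under DESeq2 were 1556, 1394, 791, 3956 in astrocyte-like, 2508 in precursor-like and 1677 in mature against precursor-like cells, in that order of groups. Thinning left 1, 0 and 1 members and 1069, 419 and 478 genes in the 3 peptide comparisons. The stricter filter left 3 members and 2350 genes in astrocyte-like and 1 member in precursor-like cells. One fit over all classes, whose low-count filter dropped Grm2, Grm4 and Grm8, left 3 members in astrocyte-like, 0 in precursor-like and 3 members with 6659 genes in mature oligodendrocyte-like cells. Precursor-like cells had 1 member called with total UMIs, RLE size factors or Leiden resolution 2. The causes were not tested. The block changed no other count by over 1.5 times. Depth limits the glia: 3 UMIs are 7.37 CPM in precursor-like and 3.73 CPM in astrocyte-like cells.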
